A study of Arabidopsis thaliana with 60 samples.

Results

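The salicylic acid pathway was followed through 10 of the 32833 genes in the table: EDS1, PAD4, SARD1, CBP60G, ICS1, EDS5, PBS3, NPR1, PR1 and PR2. They were taken by locus identifier as known components of the pathway, and all 10 were present in every library's column. The 10 genes, and the lists of other genes used below, were chosen with earlier results of these data known. Their normalised counts, log2 changes and tests are given for 20 groups of leaves and stems of Arabidopsis thaliana under high light, heat or both.

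Salicylic acid is a phenolic hormone of plant defence, and it also accumulates in leaves under excess light. Most of it is derived from chorismate in the chloroplast: ICS1 makes isochorismate, EDS5 moves it into the cytosol, and PBS3 joins it to glutamate, after which the conjugate breaks down to the hormone. Upstream, EDS1 and PAD4 form a complex that relays immune signals, and the transcription factors SARD1 and CBP60g bind and switch on ICS1 and other genes of the pathway. Downstream, the receptor and coactivator NPR1 drives the transcription of defence genes, of which PR1 and PR2 (a secreted protein and a beta-1,3-glucanase) are the usual readouts.

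RNA came from bolting plants of the wild type Col, grown at 23 °C with 14 h of light at 50 µmol of photons per square metre and second and 10 h of darkness. Leaves were treated for 2 or 8 min with high light (HL, 1700 µmol of photons per square metre and second from a gooseneck lamp), with heat (HS, a heat block held 2 cm below the leaf), with both on 1 leaf (HL+HS), or with HL on 1 leaf and HS on a second leaf of the same plant (HL&HS). The stem of each kind of plant, not itself treated, was sampled too, and untreated plants at 0 min gave the leaf and the stem control. This gave 11 leaf groups and 9 stem groups of 3 libraries each, since both treated leaves of an HL&HS plant have libraries of their own: they are called the lit leaf and the heated leaf here, and HL leaf and HS leaf of HL&HS in the plots. The labels do not say whether those 3 libraries came from separate plants, so p-values measure the spread between libraries, which may be technical. The labels of leaves given 1 stress for 8 min conflict, the title naming one stress and the treatment tag the other, and those groups are called titled HL and titled HS here.

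The 27 libraries at 2 min held 31725824 to 47559552 reads and the 33 libraries at 0 and 8 min held 11071918 to 12998149, so that time and depth cannot be told apart when a 2 min group is set against the control. Groups sampled at the same time did not differ in this way. No unstressed plants were sampled at 2 or 8 min, and 3 control libraries per tissue served all comparisons with control. A gene was called when the Benjamini-Hochberg adjusted p of limma, over all genes of a tissue with a mean of at least 10 normalised counts, was under 0.05. All 7 stem markers (CESA4, CESA7, CESA8, FLA11, FLA12, XCP1 and KNAT1) were present in leaf libraries at a low level: their sum was 513 to 592 in leaf control and 74422 to 76068 in stem control. The sum reached 1170.5 to 1331 in the leaf group titled HL at 8 min and 1089 to 3047 in the lit leaf at 8 min, and KNAT1 was listed at 0 in 2 of 33 leaf libraries. In whole leaves and stems, fewer cells of a type and less RNA per cell cannot be told apart.

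In the RefSeq TAIR10.1 annotation ICS1 (AT1G74710) lies at chr1:28070295-28074177 on the plus strand, EDS5 (AT4G39030) at chr4:18185437-18189224 (plus) and PBS3 (AT5G13320) at chr5:4267456-4271064 (plus). EDS1 (AT3G48090) lies at chr3:17755329-17758147 (minus), PAD4 (AT3G52430) at chr3:19431095-19434450 (plus), SARD1 (AT1G73805) at chr1:27744790-27749248 (minus) and CBP60G (AT5G26920) at chr5:9475679-9478777 (plus). NPR1 (AT1G64280) lies at chr1:23852748-23855658 (minus), PR1 (AT2G14610) at chr2:6241640-6242541 (minus) and PR2 (AT3G57260) at chr3:21188397-21189967 (minus). The values are counts over the whole gene, and the submitters' notes name TAIR10 as the build.

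In untreated leaves the end products of the pathway were the most abundant. Per kilobase of exon, PR2 averaged 2586 ± 88.8 normalised counts and PR1 1698 ± 67.5 (SD, n = 3). ICS1 followed at 816 ± 40.6, then PAD4 at 616 ± 5.16, PBS3 at 562 ± 27.05 and EDS1 at 536 ± 6.64. The regulators CBP60G (420.3 ± 4.61), SARD1 (386 ± 15.3) and NPR1 (341 ± 28.1) came next, and the transporter gene EDS5 was the lowest at 153 ± 16.3 normalised counts per kilobase. PBS3 and EDS1 differed by less than the SD of PBS3, whereas the other neighbours in this order were further apart than the larger of their SDs.

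All 10 genes were higher in leaf control than in stem control, but by very different factors. The log2 difference was 6.63 for PR1, 6.39 for CBP60G, 5.90 for PR2, 4.05 for SARD1 and 3.76 for PAD4. It was 2.75 for EDS5, 2.70 for ICS1, 1.15 for NPR1, 0.87 for EDS1 and 0.29 for PBS3. The adjusted p was at most 0.00097 for every gene but PR1 (limma, Benjamini-Hochberg). PR1 passed the filter of this fit only through leaf, where it is high, so its p is not used and only its values are given. The PR1 difference was 7.5 without stem control replicate 1, which held 49.9 normalised counts beside 8.27 and 6.76 in the other stem control libraries. Between these tissues 82.9% of 18893 tested genes were called, in either direction, so that a call alone does not set a gene apart. The median log2 difference was 3.26 for the 10 genes and 0.005 for all genes tested. In stem the order of the levels was another one: PBS3 (459 ± 2.88 normalised counts per kilobase) and EDS1 (293 ± 24.4) led it, NPR1 (153 ± 10.0) and ICS1 (126 ± 14.0) followed, and CBP60G stood last at 4.66 ± 1.07. PBS3 was thus nearly as high in stem as in leaf, whereas ICS1 and EDS5, which act before it, were not.

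The sequences just upstream of the genes are shown for 4 members chosen by their role: the 2 transcription factor genes, ICS1 as their known target, and the transporter gene that follows it in the route. Each line holds the 250 bases before the gene start in the RefSeq TAIR10.1 annotation, read 5′ to 3′ on the strand of the gene: ICS1 from chr1:28070045-28070294 (plus strand), EDS5 from chr4:18185187-18185436 (plus strand), SARD1 from chr1:27749249-27749498 (minus strand) and CBP60G from chr5:9475429-9475678 (plus strand). Capitals mark the motifs searched for on both strands: GAAATTT, the core bound by CBP60g and SARD1, the W-box (TTGACC or TTGACT) of WRKY factors, the TGACG element of TGA factors, and GAANNTTC, a heat shock element core.
ICS1: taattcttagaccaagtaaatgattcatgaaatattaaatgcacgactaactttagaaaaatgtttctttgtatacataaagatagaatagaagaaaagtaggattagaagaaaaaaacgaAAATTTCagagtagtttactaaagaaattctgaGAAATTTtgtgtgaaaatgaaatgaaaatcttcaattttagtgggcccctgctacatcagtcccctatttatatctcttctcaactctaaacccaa
EDS5: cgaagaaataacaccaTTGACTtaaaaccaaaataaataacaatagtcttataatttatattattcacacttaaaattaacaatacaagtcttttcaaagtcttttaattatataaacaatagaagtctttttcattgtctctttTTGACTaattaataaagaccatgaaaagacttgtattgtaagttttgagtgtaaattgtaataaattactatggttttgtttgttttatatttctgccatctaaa
SARD1: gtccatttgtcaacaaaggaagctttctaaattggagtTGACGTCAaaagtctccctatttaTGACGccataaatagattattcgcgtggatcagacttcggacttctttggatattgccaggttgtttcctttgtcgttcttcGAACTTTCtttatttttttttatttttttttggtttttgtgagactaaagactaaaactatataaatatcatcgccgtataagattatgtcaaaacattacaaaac
CBP60G: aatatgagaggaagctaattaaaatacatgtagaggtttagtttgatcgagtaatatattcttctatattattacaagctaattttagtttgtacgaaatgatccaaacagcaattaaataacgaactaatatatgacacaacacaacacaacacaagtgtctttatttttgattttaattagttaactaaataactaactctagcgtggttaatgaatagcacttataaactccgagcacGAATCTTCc
GAAATTT was found in both orientations in the ICS1 window, 96 and 129 bases before the gene start, and in no other member. This motif was present in 12.5% of the 27443 windows of the same length in the annotation. EDS5 held 2 W-boxes, 105 and 234 bases before its start, and EDS1 held 1, at 97 bases; 28.4% of all windows held at least 1. SARD1 held TGACG 3 times, with 2 of the matches overlapping on opposite strands in the run TGACGTCA, while 18.6% of all windows held it. GAANNTTC was found in SARD1 (106 bases before the start) and CBP60G (9 bases), against 9.55% of all windows. PR2 held the G-box CACGTG (6.49% of windows), no member held CGCGTT (2.59%), and PBS3, PAD4, NPR1 and PR1 held none of the motifs. A match says that these letters are present and is not evidence of binding.

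When a plant received both stresses, transcripts of most of the 10 genes were lower in its leaves at 2 min than in the 0 min control. This held from EDS1 and PAD4 through to PR1 and PR2. In HL+HS leaves, in the lit leaf and the heated leaf of HL&HS plants, 9 of the 10 genes were below control and the exception, NPR1, was not called. Of all genes tested, 15.5% were called lower in HL+HS leaves, 10.9% in the lit leaf and 12.5% in the heated leaf. The median log2 change of the 10 genes was -1.32 in HL+HS leaves, -0.72 in the lit leaf and -0.94 in the heated leaf, while the median of all 18231 genes tested was 0.01, 0.01 and 0.02 in the same groups.

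**Figure D1:**
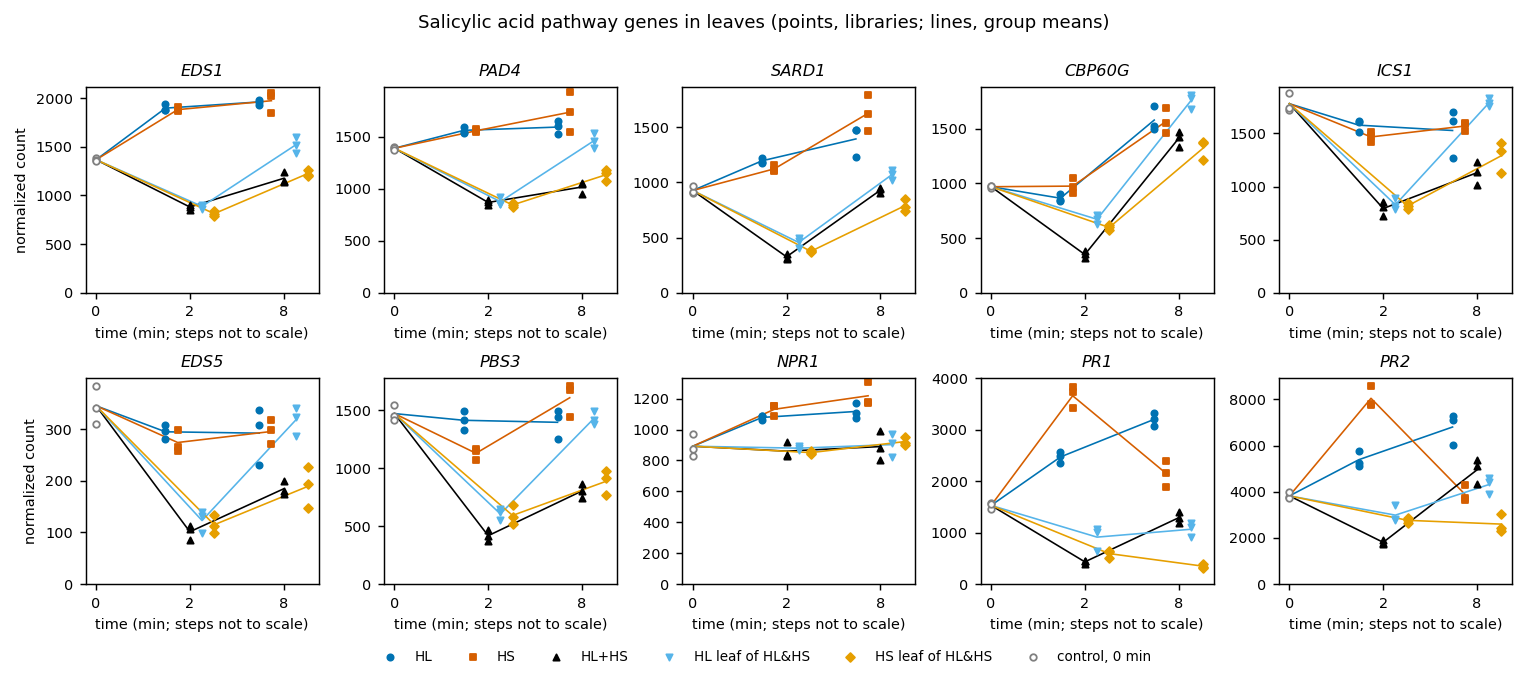
Normalised counts of the 10 pathway genes in leaves (vertical axes, each from 0) at 0, 2 and 8 min (horizontal axis, steps not to scale); points are libraries, shifted sideways by treatment, and lines join group means to the shared control. At 2 min the 9 libraries of plants given both stresses lay below all control libraries for every gene but NPR1. At 8 min HL and HS follow the titles of the groups.

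EDS1, whose protein pairs with PAD4 or SAG101 in immune signalling, had 883, 906 and 853 normalised counts in HL+HS leaves, 864, 891 and 906 in the lit leaf and 839, 787 and 810.1 in the heated leaf at 2 min, against 1382, 1368 and 1349 in control. All 9 libraries of plants given both stresses lay below the 3 control libraries. PAD4 behaved alike, with 869, 888 and 846 normalised counts in HL+HS leaves, 849, 856 and 922 in the lit leaf and 844, 858 and 828 in the heated leaf, against 1397, 1394 and 1375 in control. The log2 changes of this pair were the smallest among the genes that fell in HL+HS leaves, -0.63 for EDS1 and -0.68 for PAD4 (SE 0.05 and 0.06). EDS1 has a near copy beside it, AT3G48080, with which it shares 0.977% of its 50-base windows, so few of its reads can be shared. AT3G48080 averaged 168 ± 12.3 normalised counts in HL+HS leaves and 249 ± 27.6 in control.

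In HL+HS leaves the transcription factor genes fell further. In the leaves of HL&HS plants this held for SARD1 (log2 changes -1.03 and -1.30 in the lit and the heated leaf), while CBP60G (-0.53 and -0.70) changed by about as much as EDS1 (-0.62 and -0.75) and PAD4 (-0.67 and -0.72). SARD1 had 308, 352 and 317 normalised counts in HL+HS leaves, 496, 402 and 469 in the lit leaf and 366, 376 and 384 in the heated leaf at 2 min, against 901, 909 and 968 in control. CBP60G, its relative and partly redundant partner, had 317, 382 and 350.5 normalised counts in HL+HS leaves, 714, 628 and 673 in the lit leaf and 573, 597 and 621 in the heated leaf, against 972, 958 and 978 in control. Neither gene had a library of a plant given both stresses within the control range, and for CBP60G the 3 HL+HS libraries also lay below the 6 libraries from HL&HS plants. The fall was to 0.352 of control for SARD1 (adjusted p 2.9e-20, limma with Benjamini-Hochberg adjustment) and to 0.360 for CBP60G (adjusted p 6.1e-21) in HL+HS leaves. SARD1 overlaps AT1G73790 on the other strand over 18.4% of its exons, and the labels do not give the strand setting, but AT1G73790 averaged 0.371 ± 0.642 normalised counts in HL+HS leaves and 2.86 ± 2.59 in control.

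The 3 genes of the synthesis route fell with them. ICS1 had 718, 856 and 805 normalised counts in HL+HS leaves, 813, 784 and 889 in the lit leaf and 791, 815 and 846 in the heated leaf, against 1719.9, 1737 and 1881 in control. PBS3 had 369.6, 469 and 416 normalised counts in HL+HS leaves, 622, 551 and 646 in the lit leaf and 515, 582 and 683 in the heated leaf, against 1453, 1414 and 1551 in control. EDS5, the least abundant of the 3, had 84.7, 107 and 113 normalised counts in HL+HS leaves, 131, 98.8 and 139 in the lit leaf and 99.3, 112 and 133 in the heated leaf, against 341, 384 and 310.3 in control. For ICS1 the 3 groups overlapped one another at less than 0.5 of control, whereas all 3 HL+HS libraries of PBS3 lay below the 6 from HL&HS plants. The log2 changes in HL+HS leaves were -1.17 ± 0.08 for ICS1, -1.76 ± 0.14 for EDS5 and -1.82 ± 0.09 for PBS3 (SE). EDS5 shares 9.42% of its exons with AT4G39040 on the other strand, a gene at 1215 ± 65.2 normalised counts in HL+HS leaves and 1161 ± 22.0 in control, so part of the EDS5 count is uncertain.

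NPR1, which also overlaps genes on the other strand over 9.64% of its exons, had 833, 826 and 922 normalised counts in HL+HS leaves, 879, 868 and 891 in the lit leaf and 862, 851 and 839.8 in the heated leaf, against 829.8, 873 and 973 in control. These groups overlapped, with log2 changes of -0.05, -0.02 and -0.07 and an SE of 0.06. The readouts downstream of NPR1 did fall. PR1 had 454, 452 and 392 normalised counts in HL+HS leaves, 1023, 643 and 1075 in the lit leaf and 647, 632 and 501 in the heated leaf, against 1569, 1461 and 1564 in control. PR2 had 1788, 1727 and 1914 normalised counts in HL+HS leaves, 2798, 2756 and 3407 in the lit leaf and 2842, 2779 and 2666 in the heated leaf, against 3772, 3719.5 and 3968 in control. Both genes stood lowest where the stresses met on 1 leaf, at 0.283 of control for PR1 and 0.474 for PR2, and the HL+HS libraries of each lay below those of HL&HS plants.

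A single stress did not lower the pathway as a whole at 2 min, and several of its genes rose. Under HL, 6 genes were called higher and 0 lower, where 13.1% and 6.77% of all genes were. Under HS, 6 were called higher and 2 lower, where 11.0% and 7.25% of all genes were. The 6 genes were EDS1, PAD4, SARD1, NPR1, PR1 and PR2 in either case, with the control libraries shared between both comparisons. The readouts rose most. PR1 had 2498, 2570.1 and 2352 normalised counts under HL and 3831, 3422 and 3737 under HS, against 1569, 1461 and 1564 in control, and PR2 had 5134, 5775 and 5251 under HL and 8578, 7798 and 7759 under HS, against 3772, 3719.5 and 3968 in control. Every treated library of both genes was above every control library and every HS library above every HL library.

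EDS1 had 1877, 1935 and 1876 normalised counts under HL and 1904, 1864 and 1874 under HS, against 1382, 1368 and 1349 in control, a log2 change of 0.47 and 0.46 (adjusted p 1.6e-10 and 2.9e-10, limma with Benjamini-Hochberg adjustment). The rises of SARD1 (0.37 under HL and 0.28 under HS on the log2 scale), NPR1 (0.28 and 0.34) and PAD4 (0.17 and 0.16) were smaller. Those of PAD4 missed the threshold once any of the 3 control libraries, or some of the treated ones, were left out. The synthesis genes were not part of this rise. ICS1 fell by 0.28 under HS and PBS3 by 0.38 on the log2 scale, and ICS1 had a log2 change of -0.17 under HL that was not called. The ICS1 call under HS was lost without control replicate 3 (log2 change -0.24, adjusted p 0.055, limma).

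**Figure D2:**
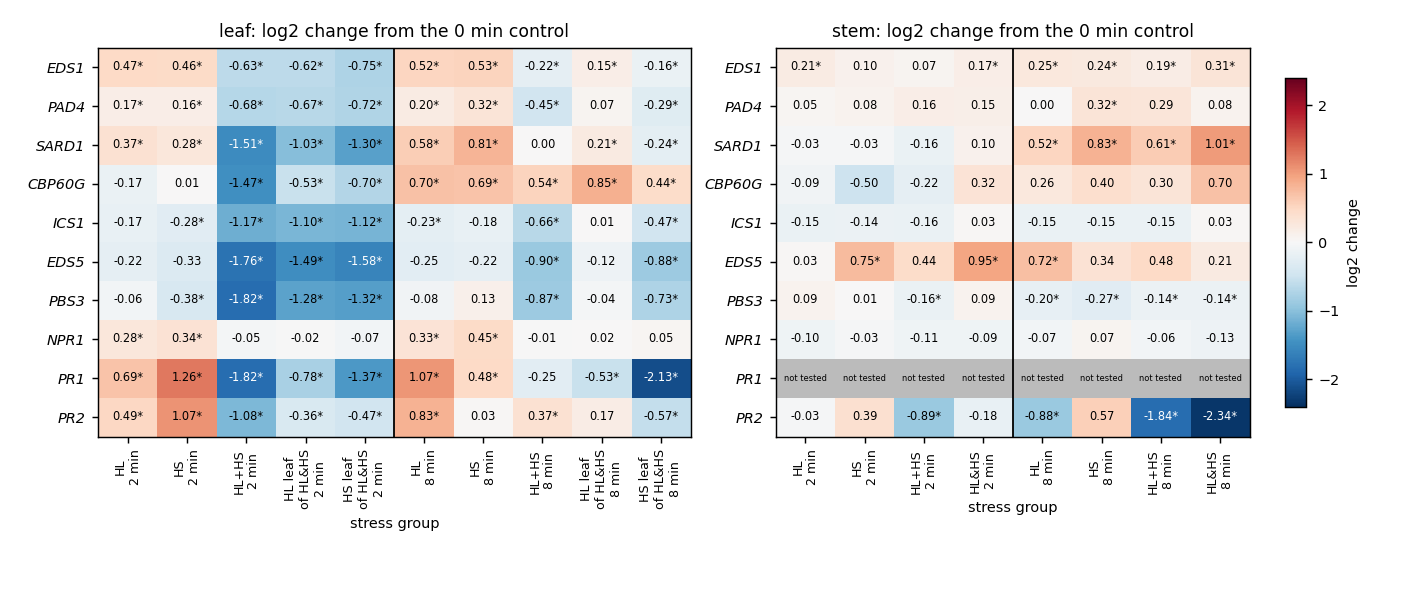
Log2 change of each gene (rows) from the 0 min control of its tissue in each stress group (columns), leaves on the left and stems on the right; red is higher and blue lower than control, the value is printed in each cell, an asterisk marks an adjusted p under 0.05 (limma) and grey marks PR1 in stem, which was too low to be tested. In leaves at 2 min the 2 columns of single stresses range from -0.38 to 1.26 and the 3 columns of both stresses from -1.82 to -0.02.

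The comparison of both stresses with a single stress needs no control and stays within 1 depth class. This comparison for HL+HS leaves was added after values had been seen, while that for the leaves of HL&HS plants was part of the planned set. At 2 min all 10 genes were lower in HL+HS leaves than in HL leaves and than in HS leaves, where 14.3% of all genes were called lower against either. All 10 were also lower in the lit leaf than in HL leaves and in the heated leaf than in HS leaves, where 9.97% and 12.2% of all genes were called lower. In each of these 40 tests the 3 libraries of plants given both stresses lay below the 3 of plants given 1 stress.

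PR1 showed the widest gap, a log2 difference of -2.51 ± 0.11 between HL+HS and HL leaves and -3.08 ± 0.11 between HL+HS and HS leaves (SE), so that HL+HS leaves held 0.175 and 0.118 of the single-stress levels. PR2 differed by -1.57 and -2.15, SARD1 by -1.87 and -1.78, and PBS3 by -1.76 and -1.44 on the log2 scale. NPR1 had the smallest gap, -0.33 and -0.40, and was called in both. The heated leaf received heat like an HS leaf, and differed from it in that another leaf of the plant was under HL. The log2 difference of that leaf from HS leaves was -2.63 for PR1, -1.58 for SARD1, -1.54 for PR2, -1.25 for EDS5, -1.21 for EDS1, -0.94 for PBS3, -0.88 for PAD4, -0.84 for ICS1, -0.71 for CBP60G and -0.41 for NPR1. In the lit leaf the differences from HL leaves were -1.47 for PR1, -1.39 for SARD1, -1.27 for EDS5, -1.22 for PBS3, -1.09 for EDS1, -0.93 for ICS1, -0.86 for PR2, -0.83 for PAD4, -0.36 for CBP60G and -0.29 for NPR1. The difference of CBP60G in HL+HS leaves was -1.31 from HL and -1.48 from HS leaves.

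**Figure D3:**
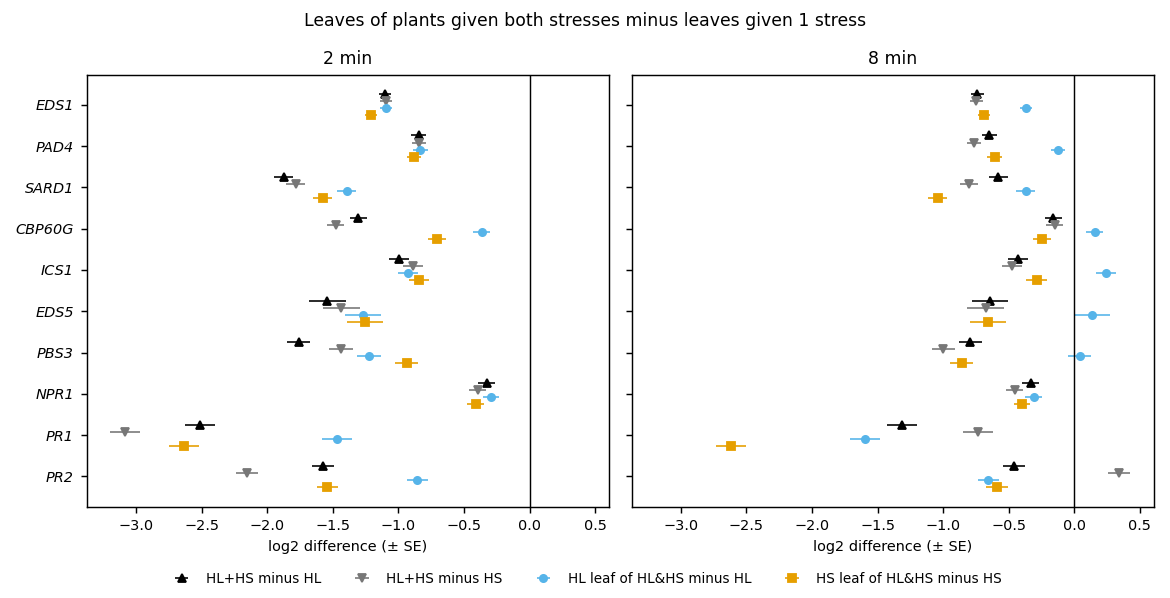
Log2 difference (± SE, horizontal axis) of each gene between leaves of plants given both stresses and leaves of plants given 1 stress, at 2 min (left) and 8 min (right). At 2 min all 40 points lie left of 0, between -3.08 and -0.29; at 8 min they lie between -2.62 and 0.34.

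The response to HL+HS was also set, on the log2 scale, against the sum of what HL and HS each did alone, which asks whether 2 stresses on 1 leaf act as the stresses do alone. Unlike the comparison with a single stress, this one uses the 0 min control. Time, and at 2 min depth too, thus do not cancel in the departure and cannot be told apart from it. At 2 min all 10 genes lay below that sum, where 13.8% of all genes did and the median of all genes was 0.01. The departure was -3.77 ± 0.16 for PR1, -2.65 ± 0.12 for PR2, -2.15 ± 0.10 for SARD1, -1.57 ± 0.06 for EDS1 and -1.38 ± 0.13 for PBS3 (SE). CBP60G departed by -1.31, EDS5 by -1.21, PAD4 by -1.01, ICS1 by -0.72 and NPR1 by -0.67. NPR1, whose HL+HS libraries overlapped control, had risen under each stress alone. At 8 min 8 of the 10 lay below the sum, where 19.1% of all genes did; ICS1 (-0.25, adjusted p 0.078) and EDS5 (-0.42, adjusted p 0.093) were not called (limma, Benjamini-Hochberg). The departure at 8 min was -1.27 for EDS1, -0.96 for PAD4, -0.78 for NPR1 and -0.49 for PR2, and its difference from that at 2 min was not tested.

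By 8 min the members had parted. CBP60G was above control in all 5 leaf groups, the only one of the 10 for which this held. It had 1469.7, 1337 and 1426 normalised counts in HL+HS leaves, 1809, 1777 and 1678 in the lit leaf, 1209, 1371 and 1383 in the heated leaf, 1497, 1528 and 1711 in the group titled HL and 1555, 1690.0 and 1461 in the group titled HS, against 972, 958 and 978 in control. All 15 treated libraries lay above all control libraries. In HL+HS leaves CBP60G was thus below control at 2 min (log2 change -1.47) and above it at 8 min (0.54), but the 2 time points differ in depth and their difference was not tested.

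ICS1, EDS5 and PBS3 did not follow CBP60G. In HL+HS leaves at 8 min ICS1 had 1233, 1018 and 1139 normalised counts, EDS5 199.6, 174 and 179.7, and PBS3 867, 739.8 and 806, all below their control libraries. The log2 changes were -0.66, -0.90 and -0.87. In the heated leaf the log2 changes of the 3 genes were -0.47, -0.88 and -0.73. In the lit leaf at 8 min ICS1 had 1784, 1829 and 1754, EDS5 324, 287 and 342, and PBS3 1385, 1416 and 1497 normalised counts, within or overlapping the control range, and none was called (log2 changes 0.01, -0.12 and -0.04). For each of the 3 genes, every library of the heated leaf lay below every library of the lit leaf at 8 min, a difference that was not tested. Among leaves given 1 stress for 8 min the only call for the 3 genes was ICS1 under titled HL (-0.23), and it was lost without the lowest of its libraries (replicate 2; log2 change -0.10) or without control replicate 3 (-0.19).

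The other regulators lay between. SARD1 in HL+HS leaves had 945, 937 and 903 normalised counts at 8 min, within the control range of 901 to 968, and it was above control in the groups titled HL (1474, 1227 and 1478) and titled HS (1619, 1791 and 1465). Its calls in the lit leaf (log2 change 0.21) and the heated leaf (-0.24) were each lost without replicate 2 of that leaf. The call in the lit leaf was also lost without control replicate 1 or 2 (0.19 and 0.20), without lit leaf replicate 1 (0.21) and with DESeq2 (0.20). EDS1 at 8 min was below control in HL+HS leaves (log2 change -0.22) and in the heated leaf (-0.16), and above it in the lit leaf (0.15) and in the groups titled HL (0.52) and titled HS (0.53). Its call in the lit leaf was lost without replicate 1 of that group. PAD4 was called lower in HL+HS leaves (-0.45) and in the heated leaf (-0.29) and higher in the groups titled HL (0.20) and titled HS (0.32). NPR1 had log2 changes of -0.01, 0.02 and 0.05 in the 3 groups of plants given both stresses, none called, but rose under titled HL (0.33) and titled HS (0.45).

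The 2 readouts had different calls under HL+HS, where PR1 was not called (-0.25), and in the lit leaf, where PR1 was lower (-0.53) and PR2 was not called (0.17). PR1 in the heated leaf had 316, 338 and 394 normalised counts at 8 min, the lowest of the 11 leaf groups, against 1569, 1461 and 1564 in control. In the lit leaf it had 914, 1185 and 1101, in HL+HS leaves 1284, 1188 and 1400.1, in the group titled HL 3203, 3329 and 3084 and in the group titled HS 2155, 2395 and 1894. PR1 was thus above control only in the single-stress groups at 8 min. PR2 in HL+HS leaves at 8 min had 5108, 4340.3 and 5386 normalised counts, above the control range of 3719.5 to 3968, whereas the heated leaf had 2315, 2437 and 3043. The log2 change of PR2 was 0.37 in HL+HS leaves (adjusted p 0.00045) and -0.57 in the heated leaf (adjusted p 3.3e-07, limma with Benjamini-Hochberg adjustment).

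Across the 11 leaf groups PR1 spanned the widest range by the ratio of the highest to the lowest group mean, with means of 349 ± 40.1 normalised counts in the heated leaf at 8 min and 3664 ± 214 under HS at 2 min (SD, n = 3), and NPR1 the narrowest, with means of 851 ± 10.9 in the heated leaf at 2 min and 1218 ± 77.3 in the group titled HS at 8 min. For PR1 the order from the lowest group was the heated leaf at 8 min (349 ± 40.1), HL+HS at 2 min (433 ± 35.0), the heated leaf at 2 min (593 ± 80.3), the lit leaf at 2 min (914 ± 236) and at 8 min (1067 ± 138), HL+HS at 8 min (1291 ± 106) and control (1531 ± 60.9). The single-stress groups followed above control: titled HS at 8 min (2148 ± 250.4), HL at 2 min (2474 ± 111), titled HL at 8 min (3205 ± 123) and HS at 2 min (3664 ± 214). The lit leaf at 2 and at 8 min differed by less than the larger of its SDs. All 6 groups of plants given both stresses stood below control, of which HL+HS at 8 min was not called, and all 4 groups of plants given 1 stress above it.

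At 8 min, of the 10 members, 7 under titled HL and 6 under titled HS were higher and 1 and 0 lower, where 18.9% and 19.0% of all genes were higher and 14.0% and 14.1% lower. In HL+HS leaves 2 were higher and 5 lower (18.0% and 17.5% of all genes). In the lit leaf 3 were higher and 1 lower, against 17.4% and 11.5% of all genes, and in the heated leaf 1 was higher and 8 lower, against 24.6% and 17.8% of all genes. The median log2 change of the 10 genes was 0.42, 0.38, -0.23, 0.05 and -0.38 in these 5 groups.

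Against a single stress at 8 min, 9 of the 10 genes were lower in HL+HS leaves than in the group titled HL and 8 lower than in the group titled HS, where 17.7% and 15.8% of all genes were lower. CBP60G was the gene not called in either (-0.16 and -0.15), and PR2 was higher than in the group titled HS by 0.34. All 10 were lower in the heated leaf than in the group titled HS (17.2% of all genes), led by PR1 with -2.62 and SARD1 with -1.04; the ICS1 call (-0.29) was lost without replicate 1 of the heated leaf. In the lit leaf 5 were lower than in the group titled HL and 1, ICS1, was higher by 0.24 (12.9% and 16.1% of all genes). The comparisons of single leaves of HL&HS plants at 8 min depend on which label is right: with the tags in place of the titles, the difference of PR2 in the lit leaf was 0.15 (adjusted p 0.18) in place of -0.66, and the call of ICS1 was lost (limma). The ICS1 call was also lost without titled HL replicate 2 (0.11, adjusted p 0.28), without lit leaf replicate 2 (0.22, adjusted p 0.055) and with only the compared groups fitted (limma).

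The other genes of the pathway, 51 in all and likewise listed with earlier results known, were counted in the same way. Under HL at 2 min 23 were higher and 0 lower, and under HS 25 higher and 1 lower. The gene lower under HS was PAL2 (-0.11). These counts stand beside 13.1% and 6.77% of all genes under HL and 11.0% and 7.25% under HS. In HL+HS leaves 7 were higher and 31 lower, where 18.2% and 15.5% of all genes were. The lit leaf had 3 higher and 24 lower (15.6% and 10.9% of all genes), and the heated leaf 7 and 25 (18.4% and 12.5%). In these 3 groups the share of the 51 called higher was thus below that of all genes. The 3 higher in the lit leaf were PAL1 (0.27), PAL2 (0.23) and UGT74F2 (0.24). Against the sum of the single stresses 31 of the 51 lay lower and 0 higher at 2 min, where 13.8% and 10.5% of all genes did, with a median of -0.90, beside 0.01 for all genes. The 7 higher in HL+HS leaves were ICS2 (0.86), PAL1 (0.19), PAL3 (0.26), AIM1 (0.17), UGT74F2 (0.26), CAMTA1 (0.17) and TGA3 (0.19). ICS2 is the second isochorismate synthase and the PAL genes encode phenylalanine ammonia-lyases, which open the other route to salicylic acid. Among the 7 other synthesis genes 4 were thus higher and 1 lower in HL+HS leaves.

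**Figure D4:**
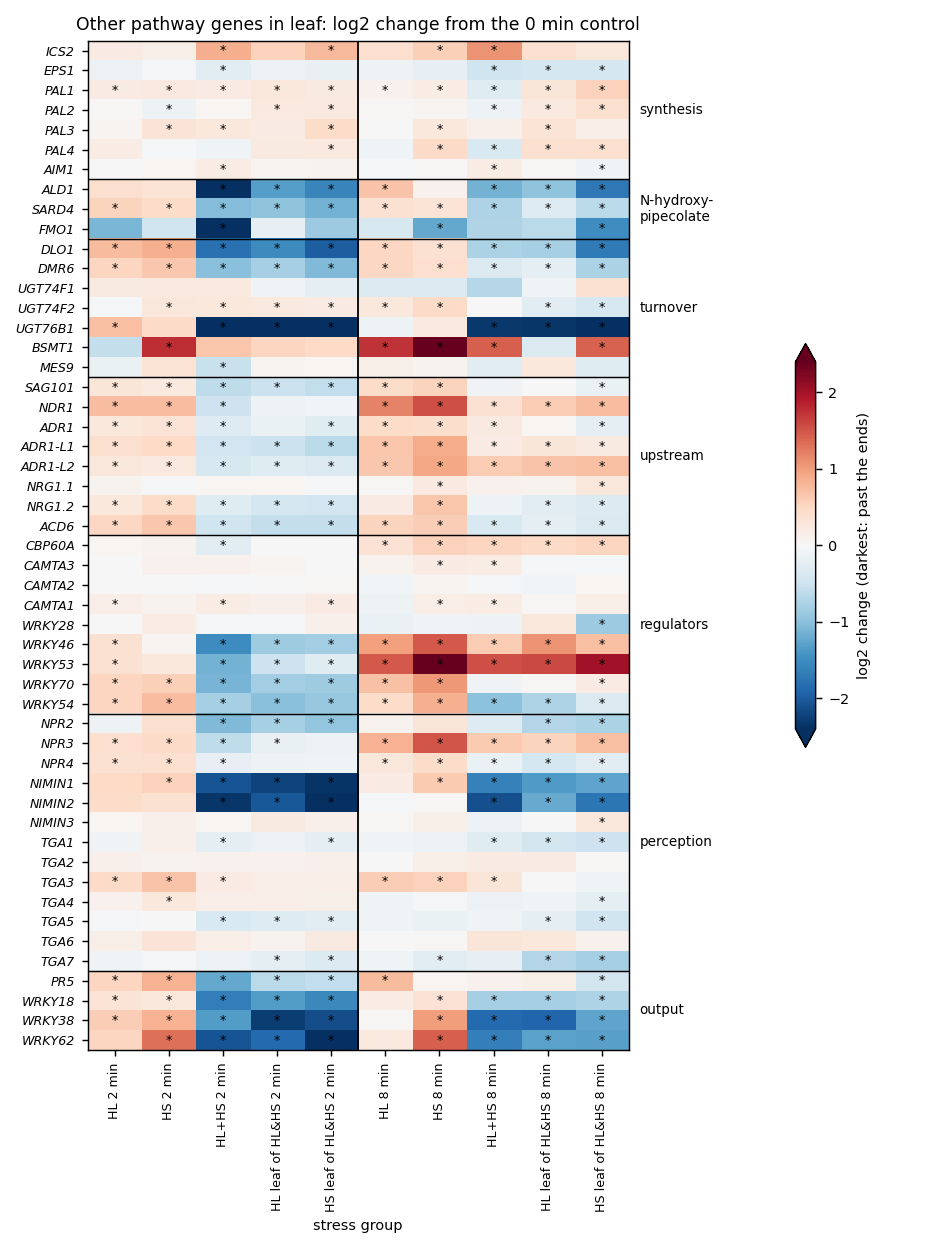
Log2 change from the 0 min leaf control of 51 other genes of the pathway (rows, grouped by role) in the 10 leaf stress groups (columns); red is higher, blue lower, the colour scale ends at 2.4 in either direction and asterisks mark an adjusted p under 0.05 (limma). UGT76B1, NIMIN1 and NIMIN2 are blue in all 6 groups of plants given both stresses.

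The genes with the largest mean rise at 2 min among those called higher in at least 3 leaf groups were TGA3, a transcription factor that works with NPR1 (0.45 under HL, 0.68 under HS and 0.19 in HL+HS leaves), and PAL3 (0.30 under HS, 0.26 in HL+HS leaves and 0.43 in the heated leaf). The largest mean fall was that of UGT76B1, a glucosyltransferase that conjugates salicylic acid and N-hydroxypipecolate. Its libraries held 36.3 to 49.5 normalised counts in HL+HS leaves, 44.2 to 69.7 in the lit leaf and 25.5 to 29.1 in the heated leaf at 2 min, while HL leaves held 757 to 864, HS leaves 643 to 701 and control 432 to 559. The log2 changes of UGT76B1 were -3.48, -3.09 and -4.12 in the 3 groups of plants given both stresses at 2 min, and 0.72 under HL. The same gene was at -2.32, -2.33 and -2.97 in these groups at 8 min. NIMIN2, which encodes a protein that binds NPR1 and is induced by salicylic acid, had log2 changes of -2.33 in HL+HS leaves, -2.04 in the lit leaf and -2.43 in the heated leaf at 2 min and of -2.10, -1.20 and -1.74 at 8 min. NIMIN2 held 35.7 to 58.4 normalised counts in HL+HS leaves at 2 min and 189 to 265 in control, without overlap.

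The following genes of the lists up to SAG101 were singled out after their values were seen. The 3 genes of the N-hydroxypipecolate branch, which amplifies the pathway, were all lower in HL+HS leaves at 2 min: ALD1, the aminotransferase of its first step, had 36.3 to 47.8 normalised counts in HL+HS leaves and 249 to 294 in control, and FMO1, the final hydroxylase, had a log2 change of -3.67 there. Of the 7 genes of salicylic acid turnover, 4 were lower and 1 higher in these leaves, beside 15.5% and 18.2% of all genes. DLO1, a hydroxylase of the hormone, had log2 changes of -1.80 in HL+HS leaves, -1.52 in the lit leaf and -1.99 in the heated leaf, with 0.76 under HL and 0.86 under HS at 2 min. DMR6, its relative, held 1369 to 1434 normalised counts in HL+HS leaves and 2711 to 2900.0 in control, with log2 changes of 0.51 under HL and 0.65 under HS. Upstream, 7 of 8 genes were higher under HL and 7 of 8 under HS at 2 min, and 7 of 8 were lower in HL+HS leaves, where 13.1%, 11.0% and 15.5% of all genes were called in the same direction; ACD6, a membrane protein that promotes the pathway, changed by 0.50 under HL, 0.65 under HS and -0.48 in HL+HS leaves. SAG101, the other partner of EDS1, changed by -0.62 in HL+HS leaves and by 0.28 under HL.

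At 8 min, of the 9 other regulator genes 5 were higher and 1 lower in HL+HS leaves, 3 and 1 in the lit leaf and 4 and 2 in the heated leaf. Of the 13 perception genes 2 were higher and 4 lower, 1 and 7, and 2 and 8 in the same groups. WRKY53, a transcription factor of senescence and defence, was higher in all 5 leaf groups, with 502 to 526 normalised counts in HL+HS leaves, 489 to 589 in the lit leaf, 697 to 738 in the heated leaf, 454 to 533 in the group titled HL and 912 to 1221 in the group titled HS, against 151 to 203 in control. At 2 min its level in HL+HS leaves had been 74.5 to 89.8. WRKY53 shares 20.5% of its exons with a gene on the other strand. BSMT1, a salicylic acid methyltransferase, was higher in 4 of the 5 groups from a low base, with 26.6 to 61.3 normalised counts in the group titled HS and 3.55 to 10.1 in control. WRKY46, like NPR3 chosen after its leaf values were seen, changed by 0.60 in HL+HS leaves, 1.08 in the lit leaf and 0.72 in the heated leaf, and NPR3, a salicylic acid receptor on the perception list, by 0.63, 0.54 and 0.71 at 8 min. Of all 51 genes, 14 were higher and 18 lower in HL+HS leaves, 11 and 20 in the lit leaf, 14 and 27 in the heated leaf, 22 and 0 in the group titled HL and 31 and 2 in the group titled HS, the 2 being FMO1 (-1.23) and TGA7 (-0.28). Of all genes 18.0% were higher and 17.5% lower in HL+HS leaves, 17.4% and 11.5% in the lit leaf, 24.6% and 17.8% in the heated leaf, 18.9% and 14.0% in the group titled HL and 19.0% and 14.1% in the group titled HS, so that the share of the 51 called higher was near that of all genes in the lit leaf and the heated leaf.

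Summed leaf markers were not lower where the pathway genes were. The sum of RBCS1A, CA1, CAB1, RCA and GLDP1 was 1258035 to 1435202 normalised counts in leaves of plants given both stresses at 2 min, 1137739 to 1275980 in leaves given 1 stress and 1178965 to 1198712 in control. The sum of the 5 senescence markers was 1706 to 2129, 1806 to 2299 and 2265 to 2422 in the same sets, with SAG12 at 0 in 23 of 33 leaf libraries. The 4 flower markers summed to 348 to 411, 326 to 428 and 372 to 417, with AP3 at 0 in 12 of 33 leaf libraries. The 7 stem markers summed to 507 to 769 in leaves given both stresses at 2 min and 508 to 753 in leaves given 1 stress, which overlap. With the 2 groups of highest stem markers left out of the fit, 42 of 50 member tests against control were called at 2 min in place of 41, and at 8 min 23 of the 30 that remained in place of 22.

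In the untreated stem fewer of the pathway's genes were called. PR1 was too low in stem to be tested, which left 9 genes. At 2 min 6 of 36 tests were called and at 8 min 17 of 36. The share of members called at 2 min was 1 of 9 under HL and HS and 2 of 9 under HL+HS and HL&HS, where 42.8%, 30.8%, 36.2% and 41.0% of all genes were called. At 8 min it was 5, 4, 4 and 4 of 9, where 43.7%, 34.4%, 33.6% and 42.9% of all genes were. ICS1, CBP60G and NPR1 were called in no stem group. ICS1 held 224 to 289.9 normalised counts in the 24 libraries of stressed plants, against 248, 308 and 269 in control. The summed stem markers were lower in all 24 libraries, at 37863 to 62679 normalised counts against 74422 to 76068 in stem control. Whether this difference bears on the changes of pathway genes from stem control was not tested.

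**Figure D5:**
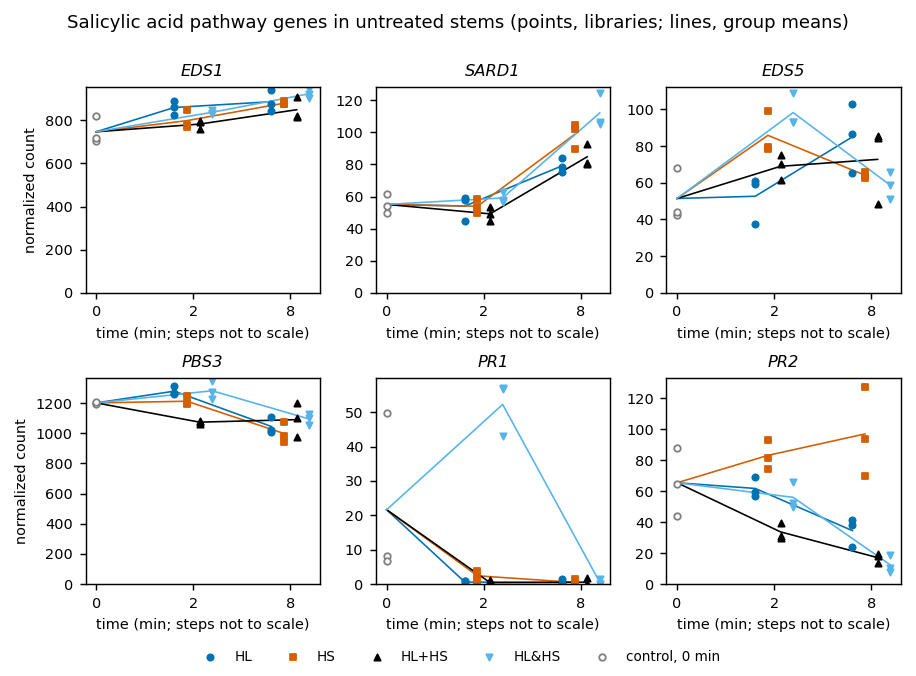
Normalised counts in untreated stems (vertical axes, each from 0) of the 5 genes with several calls and of PR1, at 0, 2 and 8 min after the treatment of leaves began (horizontal axis, steps not to scale); points are libraries and lines join group means to the shared control. SARD1 is above control in all groups at 8 min, and PR2 is lowest in HL+HS and HL&HS stems at 8 min.

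SARD1 was called higher in all 4 stem groups at 8 min. It had 78.5, 83.7 and 75.0 normalised counts in HL stems, 102, 89.5 and 105 in HS stems, 81.2, 92.7 and 80.4 in HL+HS stems and 105, 124 and 107 in HL&HS stems, against 61.6, 49.6 and 54.1 in control. All 12 libraries lay above control, with log2 changes of 0.52, 0.83, 0.61 and 1.01. These values rest on few reads, 104 in the 3 control libraries and 160 to 218 per group at 8 min. At 2 min none of the 4 groups was called for SARD1 (-0.16 to 0.10). EDS1 was also higher in all 4 stem groups at 8 min, with log2 changes of 0.19 to 0.31, with 944, 922 and 905 normalised counts in HL&HS stems against 818, 703 and 719.6 in control. The EDS1 calls in HL&HS stems at 2 min and HL+HS stems at 8 min were lost without control replicate 2. PAD4 was called only in HS stems at 8 min (0.32), and that call was lost in each fit that left out 1 of the 6 libraries.

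The synthesis genes moved apart in stem. At 8 min PBS3 was below control in each of the 4 groups, with log2 changes of -0.27 to -0.14, the lowest being HS stems with 981, 939 and 1075 normalised counts, against 1203, 1193 and 1208 in control. At 2 min PBS3 was called lower in HL+HS stems (-0.16), a call lost without replicate 3 of that group. The calls in HL+HS and HL&HS stems at 8 min were lost when any 1 of the 3 control libraries was left out. Without HL+HS replicate 3 the change in HL+HS stems at 8 min was -0.07 in place of -0.14 (adjusted p 0.39, limma), and the call in HL&HS stems was also lost with edgeR, DESeq2 and size factors within the tissue. EDS5 was higher in HS stems (79.7, 99.3 and 78.5) and in HL&HS stems (109, 93.1 and 93.0) at 2 min, and in HL stems (103, 65.5 and 86.8) at 8 min, against 42.5, 67.8 and 43.9 in control; in HL stems 1 library lay within the control range. The neighbour on the other strand of EDS5, AT4G39040, averaged 801 ± 42.7 in HS stems at 2 min, 918 ± 20.2 in HL&HS stems at 2 min and 885 ± 60.9 in HL stems at 8 min, against 698 ± 48.1 in stem control. It also averaged 919 ± 20.2 in HL stems at 2 min, where EDS5 was not called, and its part in the EDS5 count was not tested.

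PR2 fell in stems of plants given both stresses. At 8 min it had 19.5, 13.5 and 18.4 normalised counts in HL+HS stems, 7.75, 10.5 and 19.1 in HL&HS stems, 24.3, 41.1 and 38.3 in HL stems and 69.9, 94.0 and 127 in HS stems, against 88.0, 64.5 and 43.9 in control. The log2 changes were -1.84, -2.34, -0.88 and 0.57, with HS stems not called. At 2 min only HL+HS stems were called (-0.89), and the calls in HL+HS stems at 2 min and in HL stems at 8 min were lost without control replicate 1 (log2 changes -0.65 and -0.64). Against the summed single-stress changes PR2 departed by -1.53 in HL+HS stems and by -2.03 in HL&HS stems at 8 min (adjusted p 0.00051 and 2.1e-05, limma with Benjamini-Hochberg adjustment). PR2 in stem rested on few reads, 32 in the 3 HL+HS libraries and 24 in the 3 HL&HS libraries at 8 min, against 125 in control.

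PR1 in stem was near 0 except in 4 libraries. HL&HS stems at 2 min had 57.1, 56.7 and 43.0 normalised counts, and control had 49.9 in replicate 1 and 8.27 and 6.76 in the other 2. The other 7 stem groups had at most 3.70 normalised counts in any library and 1 to 15 reads per group, against 43 reads in the 3 control libraries and 364 in HL&HS stems at 2 min. With the filter on low values lifted, PR1 was called higher than control in HL&HS stems at 2 min (log2 change 1.78, adjusted p 0.029, limma) and lower in the other 7 groups. Without control replicate 1 as well, a setting added after the values were seen, the change in HL&HS stems was 2.64 and the call in HS stems at 2 min was lost (adjusted p 0.087). HL&HS stems at 2 min held 364 reads of PR1 and HL+HS stems 3, without overlap of their libraries (adjusted p 7.0e-06 with the filter lifted, limma). The spread of the control libraries leaves the base level of PR1 in stem unknown within 6.76 to 49.9 normalised counts.

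Against the sum of the single stresses, stem members departed in both directions. The 0 min control enters the sum here as well, so the same limit holds. At 2 min PBS3 (-0.26), EDS1 (-0.23) and PR2 (-1.25) lay below the sum in HL+HS stems, where 13.2% of all genes did, and ICS1 lay above it in HL&HS stems (0.33), where 9.97% of all genes did. At 8 min EDS1 (-0.30), SARD1 (-0.73) and PR2 (-1.53) lay below and PBS3 (0.33) above the sum in HL+HS stems, with 19.4% of all genes below and 21.7% above. In HL&HS stems EDS5 (-0.86) and PR2 (-2.03) lay below and ICS1 (0.34) and PBS3 (0.34) above it at 8 min, with 15% and 13.3% of all genes. Several of these calls were lost without 1 library: those of ICS1 at 2 min (0.24) and 8 min (0.25) and of EDS1 at 2 min (-0.19) without control replicate 2, and that of EDS5 without control replicate 1 (-0.74). These were not the only losses. Counting all alternatives, the ICS1 call was lost in 9 at 2 min and in 6 at 8 min, that of EDS1 in 5 and that of EDS5 in 4. HL&HS and HL+HS stems differed by 2 calls among the 9 members tested. PBS3 was 0.25 higher in HL&HS than in HL+HS stems at 2 min, where 3.12% of all genes were called. SARD1 was 0.40 higher at 8 min, where 37.8% were. The SARD1 call was lost without HL&HS replicate 2 (0.32), without HL+HS replicate 1 (0.37) and without HL+HS replicate 3 (0.36). The count of calls was higher under other settings, 6 with edgeR, 5 with DESeq2, 4 with size factors within the tissue and 6, PR1 among them, with only the compared groups fitted. PR1 passed the filter of that last fit only through HL&HS stems at 2 min (mean 52.3, beside 0.430 in HL+HS stems). Its call there is therefore no support for a difference. With edgeR, with DESeq2 and in that last fit, ICS1 (0.19 to 0.20), EDS5 (0.51) and PR2 (0.72 to 0.73) were also called higher in HL&HS than in HL+HS stems at 2 min.

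Among the 42 other genes of the pathway tested in stem, PAL4 and PAL1 of the phenylalanine route and ACD6 were lower in all 8 stem groups. The summed stem markers were lower in these groups as well, and whether the falls of these genes go with that difference was not tested. PAL4 had 838 to 1081 normalised counts in HL stems, 1511 to 1656 in HS stems, 1218 to 1335 in HL+HS stems and 1046 to 1102 in HL&HS stems at 2 min, against 3215 to 3460 in control. PAL1 had log2 changes of -1.17 to -0.74 in these 4 groups, and ACD6 of -1.65 to -0.42. At 8 min WRKY53 was higher in 3 of 4 groups and WRKY46 in 3 of 4, up to 1.38 for WRKY46 in HL&HS stems. Counts of the 42 genes higher and lower at 2 min were 4 and 11 in HL, 3 and 7 in HS, 3 and 14 in HL+HS and 0 and 14 in HL&HS stems. Of all genes 21.0% and 21.9%, 15.7% and 15%, 17.8% and 18.5%, and 19.9% and 21.1% were higher and lower in the same groups, so that the share of the 42 called higher was below that of all genes in each of the 4. At 8 min the counts were 12 and 11, 14 and 7, 13 and 11, and 9 and 14, beside 22.0% and 21.7%, 17.9% and 16.5%, 18.1% and 15.4%, and 20.6% and 22.3% of all genes. Those higher at 2 min were DMR6, WRKY70, NIMIN3 and PR5 in HL stems, DMR6, NIMIN1 and TGA4 in HS stems and ICS2, TGA3 and TGA4 in HL+HS stems, all with log2 changes of 0.19 to 0.44.

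Leaf and stem were compared in 1 fit over all 60 libraries by their response averaged over HL, HS and HL+HS. At 2 min ICS1 (-0.39), EDS5 (-1.18) and PBS3 (-0.73) had a more negative response in leaf than in stem, and NPR1 (0.27) stood higher in leaf, where 11.1% and 17.2% of all genes were called lower and higher. At 8 min EDS5 (-0.97) was lower and NPR1 (0.28) and PR2 (1.12) higher in leaf, with 12.9% and 19.0% of all genes. PR1, too low in stem to be tested there, was left out. For EDS1, PAD4, SARD1 and CBP60G the difference between tissues was not called at either time. The average can hide a difference under 1 treatment, since it joins leaf changes of opposite sign at 2 min. SARD1 changed by 0.37 under HL and by -1.51 in HL+HS leaves. Under HL+HS at 2 min PAD4 changed by -0.68 in leaf and by 0.16 in stem, a difference that was not tested.

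Genes with the most similar profile were sought for each member by Pearson's r over the 20 group means after centring within each tissue, among 18893 genes. The groups share the 2 controls and differ in depth, so the values describe the profiles only. ICS1 and PBS3 were each other's nearest gene of all 18893 (r = 0.95), and ICS1 was also the nearest gene of EDS5 (0.89). EDS1 was nearest to AT3G05500 and SAG101 (both 0.97), SARD1 to SOBIR1 (0.96) and ADR1-L1 (0.95), and CBP60G to SAG21 (0.94) and LYK5 (0.93). NPR1 was nearest to AT4G26070 and PAPP2C (both 0.96), and PAD4 to AT5G16170 (0.96) and AT3G02770 (0.95). PR1 had its nearest genes at a lower r, AT1G51890 (0.85) and GSTF7 (0.83), and PR2 was nearest to PNP-A (0.90) and AT2G43570 (0.85). Among the members, EDS1 and PAD4 had an r of 0.94, SARD1 and CBP60G 0.85, and PR1 and PR2 0.53. All r values of PR1 rest partly on stem means near 0. These were 0.430 to 2.42 normalised counts in all stem groups but control and HL&HS at 2 min. Whether the profiles of PR1 and PR2 differ apart from these was not tested. CBP60G and ICS1 had an r of 0.71.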

How the data were processed

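Gene expression was measured by RNA sequencing in 60 libraries (TruSeq, per the labels). The deposited signal values are gene counts that the authors had divided by a size factor per library. All of them were whole multiples of what 1 read is worth in their library (100% of values, tolerance 1e-06 reads), so read numbers could be recovered. The submitters' processing notes name TAIR10, FastQC 0.11.7, STAR 2.4.0.1 and DESeq2 1.20.0; the counting tool, annotation and strand setting are not given in the sources used here.

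The 10 members and the lists of other pathway and marker genes were chosen with earlier results of these data known. Of 51 other pathway genes, those named are, for each tissue and time, the 2 with the largest mean rise and the 2 with the largest mean fall among genes called alike in at least 3 stress groups, plus any needed to state a count of 5 or fewer; others are said to have been chosen after their values were seen. limma 3.58.1 (R 4.3.3) was fitted to log2(normalised count + 1) with a mean-variance trend over genes with a mean of at least 10, using all libraries of a tissue (33 leaf, 27 stem) or all 60 between tissues. Tests were two-sided with Benjamini-Hochberg adjustment over all genes of a fit, and a call is an adjusted p under 0.05. Fold changes are on the log2(value + 1) scale and understate the change of low genes. The design had named edgeR for raw counts; edgeR 4.0.16 and DESeq2 1.42.0 were run on the recovered reads as alternatives. Other alternatives were no filter, a pseudocount of 0.1, size factors within a tissue, fits of the compared groups only, a replicate block, each library left out, and the 8 min labels swapped. The scripts were tested on simulated data. Replicates of a group differed by more than sampling noise in all 60 pairs (chi-square per gene 1.34 to 6.60). Motifs were searched on both strands of the 250 bases before each gene start, and levels per kilobase used the merged exon length.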

Additional observations from a re-analysis of the deposited data

Results flagged for a closer look

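Values are given without explanation. The response averaged over HL, HS and HL+HS differed between leaf and stem by a tested log2 difference, leaf minus stem, for 4 genes at 2 min: ICS1 (-0.39), EDS5 (-1.18), PBS3 (-0.73) and NPR1 (0.27). The NPR1 call at 2 min was lost without leaf control replicate 1 (0.22, adjusted p 0.052, limma). At 8 min it differed for EDS5 (-0.97), NPR1 (0.28) and PR2 (1.12). PR1 was too low in stem for this test.

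In other cases every library of one set lay above all control libraries of its tissue and every library of the other set below all of them, and these differences were not tested. Between leaf and stem, the log2 change differed by -1.08 for EDS5 under HS and by -0.84 for PAD4 under HL+HS at 2 min, and by 1.71 for PR2 under HL (titled HL in leaf) and 2.20 under HL+HS at 8 min. Between 8 and 2 min, where depth differs as well, the log2 change of CBP60G in leaf differed by 0.87 under HL (titled HL at 8 min), 2.01 under HL+HS, 1.38 in the lit leaf and 1.14 in the heated leaf. In the lit leaf EDS1 differed by 0.77 and SARD1 by 1.24, and PR2 in HL+HS leaves by 1.45. In stem PBS3 differed by -0.29 under HL and by -0.23 under HL&HS.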

How the results depend on the processing

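Of 354 member tests 221 were called, and 197 of these calls held under each alternative tried. The test of PR1 between untreated leaf and stem is included in these counts. Leaving out 1 library at a time, with comparisons that do not use it kept as they were, gave 38 to 41 calls (41 with all libraries) in leaf at 2 min, 33 to 34 (34) in leaf at 8 min, 5 to 8 (6) in stem at 2 min and 15 to 19 (17) in stem at 8 min. For departures it gave 18 to 20 (18) in leaf and 10 to 13 (12) in stem. Stem at 2 min had 10 calls with no filter and 10 with only the compared groups fitted, PR1 entering the tests in both. In the latter fits PR1 passed the filter for HL, HS and HL+HS stems through the control libraries alone, where it was higher. HL&HS against HL+HS stems had 4 calls with size factors within the tissue, 6 with only the compared groups, 6 with edgeR and 5 with DESeq2, in place of 2. The count with only the compared groups includes PR1, which passed that filter through HL&HS stems alone. With the 8 min groups named by the treatment tag, PR2 in the lit leaf was set against the group titled HS in place of the group titled HL. Its log2 difference was then 0.15 and not called (adjusted p 0.18, limma), in place of -0.66. Replicate numbers did not pair the libraries (median correlation of same-numbered deviations 0.0018 over 165 leaf pairs and 0.0057 over 108 stem pairs, and 0.00078 over 33 pairs of leaf and stem of the same treatment and time), and the replicate block changed no member's call, with 41 and 34 calls in leaf and 6 and 17 in stem at 2 and 8 min. Depth limits PR1, PR2, CBP60G, EDS5 and SARD1 in stem, where few reads stand behind each value, and libraries at 0 and 8 min are shallower than those at 2 min.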
